A study of Mus musculus with 6 samples.

Results

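The interleukin and interleukin receptor genes of the mouse colon were taken as the genes whose probe sets carry 1 gene symbol alone, made of Il and a number, with 3 such symbols set aside by the rule. This gave 70 genes measured by 111 probe sets, out of 18193 named genes and 45037 probe sets. Total RNA of the colon was measured on Affymetrix GeneChip arrays, 3 from control mice of wild-type genotype and 3 from HDAC1/2 IEC-specific deficient mice. The mice were 4 months old by the paper's description. In the deficient mice both floxed genes, Hdac1 and Hdac2, were deleted by a Cre recombinase under the villin promoter, which acts in intestinal epithelial cells (IEC), so the immune and stromal cells of the same tissue kept both histone deacetylases. No treatment was given and both groups ate the same normal diet. The labels call the source an epithelium, whereas the extraction protocol describes whole colon, and macrophage, B cell and smooth muscle markers were all above background on the control arrays.

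Signals are log2 values per probe set, and for each gene the brightest probe set, by mean over the 6 arrays, was used. Since probe sets differ in how strongly they bind, levels of different genes were not compared. Differences are HDAC1/2 deficient minus control, tested with limma (two-sided) over all 45037 probe sets and called at a Benjamini-Hochberg adjusted p under 0.05, and SE is the standard error of a log2 fold change. A gene was counted as near background where both group means lay under a log2 signal of 6.26, the 40th percentile of all probe sets. Of the deleted genes, Hdac1 was lower on the deficient arrays (log2 fold change -1.30, SE 0.0466, limma adjusted p = 1.06e-06), whereas the brightest Hdac2 probe set had a log2 fold change of 0.05 (limma adjusted p = 0.475), and where it lies relative to the deleted part is not known here. The paper reports loss of both proteins by Western blot of enriched epithelial cells. By its tissue staining HDAC1 was not detected in mutant epithelium, while HDAC2 remained in some crypts and villi. Xist, transcribed from the inactive X of females, was at 12.85 ± 0.034 on the control and 12.02 ± 0.0333 on the deficient arrays (SD, n = 3 each), and the Y-linked Eif2s3y at 4.09 ± 0.235 on the control and 8.34 ± 0.137 on the deficient arrays (SD, n = 3 each). Each deficient array thus carried both transcripts, a pair that RNA of 1 mouse of either sex would not ordinarily give. The paper describes 3 mice per group, and whether each array held RNA of 1 mouse was not tested. The SEs and p-values below may therefore not measure the spread between mice. Differences due to genotype and to sex cannot be told apart on these arrays, and with RNA of a whole tissue fewer cells of a type and less RNA per cell cannot be told apart either. The deficient arrays also carried transcripts of pancreatic acinar cells, as 3 of 3 markers rose from a summed level of 7.26 to 7.49 to one of 13.87 to 13.92, and the part of such tissue in the values below was not tested.

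Interleukins are secreted proteins through which leukocytes, epithelium and stroma signal to each other. They act on receptors that pair a ligand-binding chain with a shared signalling chain, most of which pass the signal through Janus kinases and STAT transcription factors, while the IL-1 and IL-17 families use adaptors that lead to NF-kappaB. In the intestine the epithelium is both a source of interleukins, such as IL-7, IL-15 and IL-33, and a target of them.

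The promoters of the strongest change in each direction, of its chromosomal neighbour that changed the other way, and of Il1b are shown because the results below turn on these genes. They are the 250 bases before the transcription start in RefSeq (mouse build GRCm38.p6), written 5′ to 3′ on the strand of the gene, and capitals mark the matches to the motifs searched. Il17re lies at chr6:113458521-113458770 (plus strand), Il17rc at chr6:113471205-113471454 (plus strand), Il18bp at chr7:102018233-102018482 (minus strand) and Il1b at chr2:129371140-129371389 (minus strand).
Il17re: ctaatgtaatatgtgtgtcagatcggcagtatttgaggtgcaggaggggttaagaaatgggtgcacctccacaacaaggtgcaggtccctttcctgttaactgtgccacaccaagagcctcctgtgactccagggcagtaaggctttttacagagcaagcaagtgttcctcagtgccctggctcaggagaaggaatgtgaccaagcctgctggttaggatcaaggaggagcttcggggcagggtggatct
Il17rc: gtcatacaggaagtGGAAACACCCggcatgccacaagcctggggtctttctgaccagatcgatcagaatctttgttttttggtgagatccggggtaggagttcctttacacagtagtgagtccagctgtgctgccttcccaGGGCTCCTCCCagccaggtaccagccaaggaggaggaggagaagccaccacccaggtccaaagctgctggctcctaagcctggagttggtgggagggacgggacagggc
Il18bp: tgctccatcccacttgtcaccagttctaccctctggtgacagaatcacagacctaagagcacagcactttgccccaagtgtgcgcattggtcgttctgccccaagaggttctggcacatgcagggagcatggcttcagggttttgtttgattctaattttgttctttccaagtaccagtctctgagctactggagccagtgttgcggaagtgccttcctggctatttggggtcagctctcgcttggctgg
Il1b: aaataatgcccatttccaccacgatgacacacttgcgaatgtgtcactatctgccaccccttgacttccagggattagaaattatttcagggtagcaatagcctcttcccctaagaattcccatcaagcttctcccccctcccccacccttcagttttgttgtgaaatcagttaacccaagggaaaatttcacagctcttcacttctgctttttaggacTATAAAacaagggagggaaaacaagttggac
Both strands were searched for TTCNNNGAA, the site of STAT dimers, for GAAA, 2 bases of any kind and GAAA, an interferon-stimulated element, for GGG, 5 bases of any kind and CC, a loose NF-kappaB-like site, and for TATAAA, the TATA box. The promoter of Il1b held TATAAA from 31 to 26 bases before the start, which 12.4% of 32851 RefSeq promoters of the same length hold, and that of Il17rc held 3 NF-kappaB-like matches, 2 of them overlapping on opposite strands, a motif present in 45.8%. No other of these letters were in the Il17re, Il18bp or Il1b windows, where the STAT site occurs in 7.02% and the interferon-stimulated element in 2.98% of all promoters. The GC content was 52.4% for Il17re, 57.6% for Il17rc, 52.4% for Il18bp and 44.4% for Il1b, against a median of 52.4% over all promoters.

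In HDAC1/2 deficient colon 23 of the 70 genes were higher, 11 were lower and 36 did not pass the test. The share of interleukin genes called in either direction, 48.6%, was near that of all genes, 50.4%. It was 32.9% for higher calls, against 21.9% of all genes, and 15.7% for lower calls, against 28.4%. The groups did not overlap in 39 of the 70 genes (55.7%, against 60.9% of all genes), which include all 34 genes called. Changes of more than 2-fold were few, with Il18bp, Il16 and Il17b higher (4.29%, against 2.25% of all genes) and Il17re and Il15 lower (2.86%, against 1.82%). The median log2 fold change was 0.04 for the interleukin genes and -0.02 for all genes, and the median absolute log2 fold change 0.19 and 0.17.

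Of the 37 genes above background 26 were called (70.3%, against 60.8% of all such genes), and the groups did not overlap in 30 (81.1%, against 72.2%). Among them 17 were higher (45.9%, against 26.5% of all genes above background), 9 were lower (24.3%, against 34.4%) and 11 did not pass. Of the higher ones, Il1r2 and Il2rb had control means under the limit (6.16 and 6.18) and counted as above background through the deficient arrays alone. The shares of all genes follow the same rule. Changes of at least 0.5 on the log2 scale were called as higher in 9 of the 37 (24.3%, against 9.45%) and as lower in 4 (10.8%, against 11.7%). Of the 33 near background 8 were called (24.2%, against 15.3% of all such genes), of which 6 were higher (18.2%, against 6.77%) and 2 were lower (6.06%, against 8.54%). By this limit 20 of 32 ligands and inhibitors and 11 of 34 receptor chains were near background. Since probe sets differ in binding, these counts do not compare their RNA levels. Of the 23 receptor chains above background, 12 were higher, 5 lower and 6 did not pass. Of the 12 ligands and inhibitors above background 4 were higher, 3 lower and 5 did not pass. The shares to set beside both are the 26.5% higher and 34.4% lower of all genes above background.

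**Figure D1:**
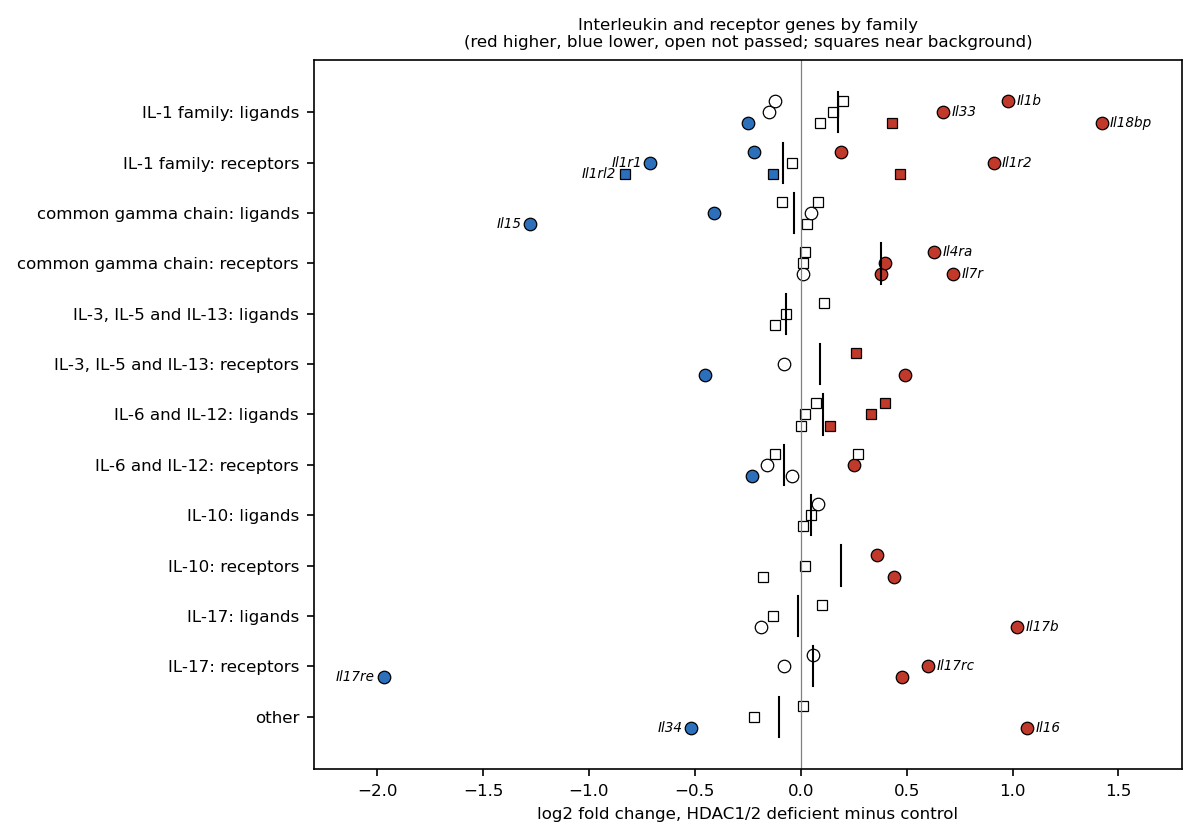
Log2 fold changes (HDAC1/2 deficient minus control, horizontal axis) of the 70 interleukin genes, 1 point per gene, in rows by family and role. Red points were called as higher by limma (adjusted p under 0.05), blue as lower, and open points did not pass, squares are near background and the black bar is the median of a row. Receptors of the common gamma chain family lie right of 0, with a median of 0.38, and Il17re stands farthest left at -1.97.

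**Figure D2:**
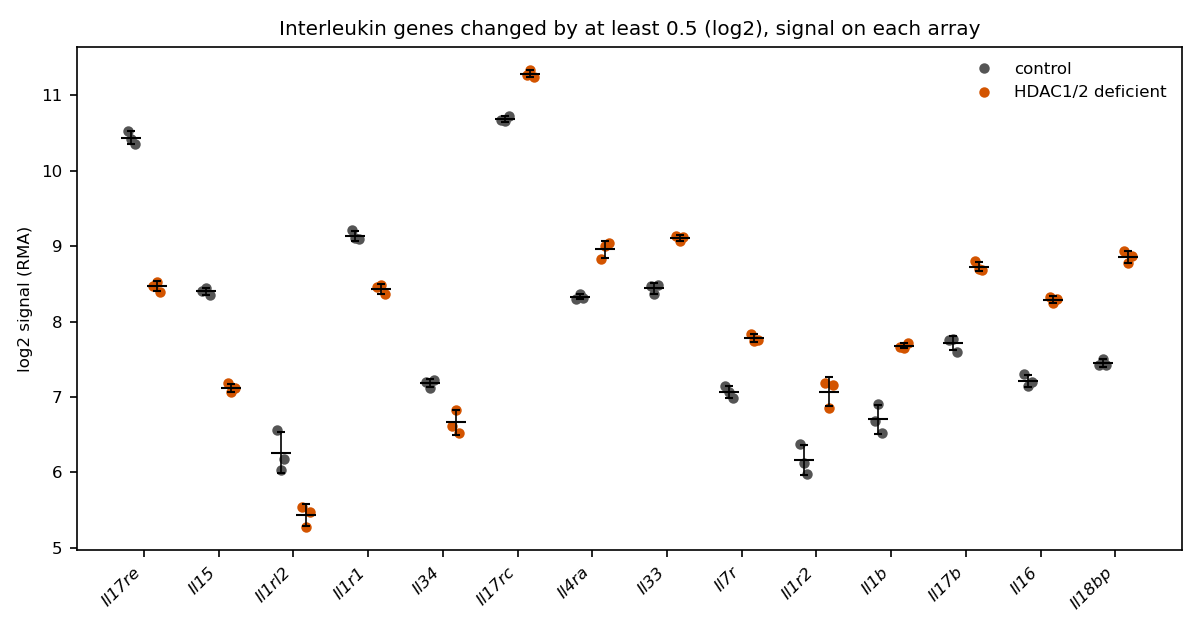
Log2 RMA signals on each array for the 14 interleukin genes that passed the test with an absolute log2 fold change of at least 0.5, ordered by change. Points are the 3 control (grey) and 3 HDAC1/2 deficient (orange) arrays, bars are mean and SD, and the groups do not overlap in any of the genes shown. Heights of different genes are not comparable.

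Among ligands of the IL-1 family and their soluble inhibitors, 4 of 10 genes were higher (against 21.9% of all genes), 1 was lower (against 28.4%) and 5 did not pass. Il18bp, which encodes a secreted decoy protein that binds an IL-1 family cytokine, had log2 signals of 7.42, 7.50 and 7.42 on the control arrays and 8.94, 8.78 and 8.87 on the deficient arrays. Every deficient array lay above every control array, a 2.67-fold difference and the largest rise among the brightest probe sets of interleukin genes (log2 fold change 1.42, SE 0.0555, limma adjusted p = 1.59e-06). Il1b, the gene of the inflammatory cytokine IL-1 beta, was at 6.68, 6.90 and 6.52 on the control arrays and 7.66, 7.65 and 7.72 on the deficient arrays. It rose, with the groups apart (log2 fold change 0.98, SE 0.0907, limma adjusted p = 9.59e-05), and the control arrays were spread more widely, with an SD of 0.192 against 0.0345. Il33, the gene of a nuclear alarmin of epithelial, endothelial and stromal cells, was at 8.47, 8.36 and 8.48 on the control arrays and 9.14, 9.07 and 9.12 on the deficient arrays. Its rise, too, left the groups apart (log2 fold change 0.67, SE 0.0506, limma adjusted p = 3.36e-05). Il1rn, which encodes the IL-1 receptor antagonist, was at 9.41, 9.39 and 9.41 on the control arrays and 9.21, 9.20 and 9.07 on the deficient arrays. It fell in all 3 of its probe sets, by log2 fold changes from -0.56 to -0.21 (log2 fold change -0.25, SE 0.0509, limma adjusted p = 0.00619).

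The genes of the other IL-1 family ligands above background, Il1f5 and Il1f10, which are expressed in keratinized epithelium, did not pass. Il1f10 had a log2 fold change of -0.15 (95% interval -0.28 to -0.02, limma adjusted p = 0.0609) and Il1f5 of -0.12 (95% interval -0.28 to 0.04). The call of Il1f10 depends on the setting, since it passed with each array centred on its median (limma adjusted p = 0.0408) and without control array 3 (limma adjusted p = 0.0277). Squamous epithelium markers fell on the same arrays in 4 of 4 cases, with a summed level (log2 of the added signals of the list) of 10.77 to 10.87 on the control and 8.72 to 8.76 on the deficient arrays. Their part in the values of Il1rn, Il1f5 and Il1f10 was not tested.

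Of 8 receptor chains of the IL-1 family, 3 were higher (37.5%, against 21.9% of all genes), 4 were lower (against 28.4%) and 1 did not pass. Of these, 4 were near background, among them Il1rapl1 and Il1rl2, whose lower calls were each lost under alternatives given below. Il1r1 encodes the receptor through which IL-1 signals, and it was at 9.22, 9.11 and 9.10 on the control arrays and 8.46, 8.48 and 8.36 on the deficient arrays. All deficient arrays were below the control arrays (log2 fold change -0.71, SE 0.0551, limma adjusted p = 3.94e-05). Il1r2, the decoy receptor that captures IL-1 without signalling, was at 6.38, 6.12 and 5.98 on the control arrays and 7.19, 6.85 and 7.16 on the deficient arrays. It moved the other way, with all deficient arrays above the control arrays (log2 fold change 0.91, SE 0.124, limma adjusted p = 0.000725). Its control mean, 6.16, lay under the background limit. Thus Il1b and its decoy receptor were higher where the signalling receptor and the antagonist were lower. Il1rap, the accessory chain that Il1r1 and other receptors of the family share, was at 7.85, 7.78 and 7.76 on the control arrays and 7.59, 7.49 and 7.65 on the deficient arrays, and was called as lower (log2 fold change -0.22, SE 0.0555, limma adjusted p = 0.015). That call was lost without control array 1 (limma adjusted p = 0.0521), and the mean of its 5 probe sets had a log2 fold change of -0.03. Il18rap, a signalling chain of the family on T and NK cells, rose (log2 fold change 0.19, SE 0.0439, limma adjusted p = 0.0101).

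Macrophage markers rose in 4 of 4 cases on the deficient arrays, from a summed level of 12.33 to 12.38 on the control arrays to 13.06 to 13.10. Of 3 neutrophil markers, S100a8 and S100a9 rose and Cxcr2 was near background, with a summed level of 7.62 to 7.68 on the control and 10.54 to 10.59 on the deficient arrays. Myeloid cells are a known source of IL-1 beta and of the decoy receptor, and the part of these markers in the values of Il1b and Il1r2 was not tested. Smooth muscle markers fell in 4 of 4 cases, with a summed level of 15.52 to 15.54 on the control and 15.18 to 15.24 on the deficient arrays, and 2 of 3 endothelial markers fell, from 9.40 to 9.46 to a level of 9.22 to 9.38. Of 4 fibroblast markers Pdgfra and Col1a2 rose, Col1a1 fell and Dcn did not pass, with a summed level of 13.61 to 13.64 on the control and 13.70 to 13.76 on the deficient arrays. Stromal cells carry Il1r1, and the part of these markers in its value was not tested.

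In the family that signals through the common gamma chain, 2 of 6 ligand genes were lower (33.3%, against 28.4% of all genes) and 4 did not pass. Of 7 receptor genes 4 were higher (57.1%, against 21.9% of all genes) and 3 did not pass. Il15, the gene of a cytokine that keeps intraepithelial lymphocytes and NK cells alive, was at 8.41, 8.45 and 8.35 on the control arrays and 7.18, 7.06 and 7.12 on the deficient arrays. No array of one group came near the other, a 2.43-fold fall (log2 fold change -1.28, SE 0.0484, limma adjusted p = 1.36e-06). Il15ra, the chain that presents IL-15 to neighbouring cells, had a log2 fold change of 0.01 and did not pass (95% interval -0.21 to 0.23, limma adjusted p = 0.967). Il2rb, the signalling chain that IL-2 and IL-15 share, was at 6.14, 6.24 and 6.18 on the control arrays and 6.69, 6.46 and 6.56 on the deficient arrays. It rose, with the groups apart (log2 fold change 0.38, SE 0.0663, limma adjusted p = 0.00245). Its control mean, 6.18, lay under the background limit. Il7, which encodes a survival factor of lymphocytes made by epithelium and stroma, was at 8.71, 8.53 and 8.82 on the control arrays and 8.28, 8.20 and 8.36 on the deficient arrays. Both of its probe sets fell, the dimmer one by 0.52 on the log2 scale and the brighter one less (log2 fold change -0.41, SE 0.0802, limma adjusted p = 0.00479). Its receptor gene Il7r, which marks naive and memory T cells and innate lymphoid cells, was at 7.14, 7.06 and 6.98 on the control arrays and 7.84, 7.74 and 7.76 on the deficient arrays. In contrast to the ligand, both of its probe sets rose, the dimmer one by 0.33 and the brighter one more (log2 fold change 0.72, SE 0.0544, limma adjusted p = 3.45e-05).

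Il4ra, the chain that IL-4 and IL-13 both need, was at 8.30, 8.36 and 8.31 on the control arrays and 8.83, 9.0 and 9.04 on the deficient arrays. It was higher on every deficient array (log2 fold change 0.63, SE 0.0622, limma adjusted p = 0.000131), and 2 of its 3 probe sets rose. Il21r, the receptor of the T cell cytokine IL-21 and the chromosomal neighbour of Il4ra, rose by 0.40 (limma adjusted p = 0.00129). The genes of IL-2, IL-4 and IL-21 were near background in both groups and did not pass, and Il9, the one other ligand gene above background, had a log2 fold change of 0.05 (95% interval -0.10 to 0.21). T cell markers rose in 4 of 5 cases (Cd3g by 1.62, Cd3d by 0.97, Cd3e by 0.61 and Cd4 by 0.25 on the log2 scale), with a summed level of 9.65 to 9.77 on the control and 10.34 to 10.43 on the deficient arrays. The fifth, Cd8a, had a log2 fold change of 0.08 and did not pass. B cell markers rose in 3 of 3 cases, from a summed level of 9.44 to 9.49 to one of 10.91 to 10.93. The part of lymphocyte markers in the values of Il7r, Il2rb, Il21r and Il4ra was not tested.

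Among receptors of IL-3, IL-5 and IL-13, Il13ra1 fell and Il3ra rose. Il13ra1, which joins Il4ra to form the receptor for IL-13 on epithelial cells, was at 11.08, 11.07 and 11.07 on the control arrays and 10.64, 10.58 and 10.66 on the deficient arrays. It was lower on every deficient array (log2 fold change -0.45, SE 0.0412, limma adjusted p = 9.24e-05), as were 2 other probe sets of its 5, while the mean of all 5 had a log2 fold change of -0.24. The partners of this receptor therefore changed in opposite directions, with Il4ra higher and Il13ra1 lower. The decoy receptor gene Il13ra2 did not pass (log2 fold change -0.08, 95% interval -0.20 to 0.03). Il3ra, the ligand-binding chain for IL-3, a growth factor of mast cells and basophils, was at 7.25, 7.28 and 7.14 on the control arrays and 7.61, 7.86 and 7.67 on the deficient arrays. All deficient arrays were higher (log2 fold change 0.49, SE 0.0737, limma adjusted p = 0.00121). Of the beta chains that pair with Il3ra, Csf2rb rose by 1.14 and Csf2rb2 by 0.87 on the log2 scale. Il3, Il5 and Il13 themselves were near background in both groups. Of 4 eosinophil markers Siglecf rose by 1.74, Prg2, near background, was called as higher by 0.46, and Epx and Ccr3 were near background and did not pass. Of 4 mast cell markers Mcpt1 rose by 2.83 and Cpa3 by 0.47, Kit fell by 0.99 and Mcpt4 was near background. The summed level of the eosinophil markers was 7.15 to 7.21 on the control and 8.15 to 8.22 on the deficient arrays, and that of the mast cell markers 10.50 to 10.53 and 10.43 to 10.52. In the mast cell sum the fall of Kit, which had the highest control signal of that list (10.27), offset the rise of Mcpt1. The part of these markers in the value of Il3ra was not tested.

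None of the 6 ligand genes of the IL-6 and IL-12 families was above background. Of their receptors, Il6st, which encodes the gp130 chain shared by IL-6, IL-11, IL-27, LIF and oncostatin M, was at 10.60, 10.59 and 10.62 on the control arrays and 10.37, 10.39 and 10.34 on the deficient arrays. It was lower on every deficient array by a small difference (log2 fold change -0.23, SE 0.0392, limma adjusted p = 0.00205), in 1 of its 4 probe sets, the other 3 of which ranged from -0.23 to -0.06 and did not pass. Il6ra, the IL-6 binding chain, had a log2 fold change of -0.16 (limma adjusted p = 0.0635), did not pass, and passed without control array 1 (limma adjusted p = 0.0209). Il27ra, the IL-27 binding chain of lymphocytes, was at 6.52, 6.55 and 6.57 on the control arrays and 6.85, 6.64 and 6.90 on the deficient arrays. It was called as higher (log2 fold change 0.25, SE 0.0693, limma adjusted p = 0.0248), but the call was lost when control array 1, 2 or 3 or deficient array 1 or 3 was left out (adjusted p between 0.0544 and 0.08 in limma). Other chains that join gp130 were split, as Osmr rose by 0.64 (0.28 in the mean of its probe sets) and Lifr fell by 0.61 on the log2 scale. Ebi3, a subunit of IL-27, rose by 0.56.

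In the IL-10 family, 28.6% of the 7 genes were called in either direction, against 50.4% of all genes. Of its 4 receptor chains 2 were higher (against 21.9% of all genes). Of its 3 ligands 0 passed, either at the adjusted p or at an unadjusted limma p under 0.05. Il22ra2, which encodes a soluble decoy receptor of the family secreted by dendritic cells, was at 8.70, 8.65 and 8.67 on the control arrays and 9.20, 9.04 and 9.12 on the deficient arrays. It rose, with the groups apart (log2 fold change 0.44, SE 0.0515, limma adjusted p = 0.000311). Il10ra, the IL-10 binding chain on leukocytes, had log2 signals of 6.57, 6.84 and 6.62 on the control arrays and 6.87, 7.08 and 7.15 on the deficient arrays. The groups lay close to each other but did not overlap (log2 fold change 0.36, SE 0.0936, limma adjusted p = 0.0184), and the call was lost without control array 1 or 3 or deficient array 2 or 3 (limma adjusted p from 0.06 to 0.0637). Its second brightest probe set rose by 0.50. Of 3 dendritic cell markers Itgax rose by 0.91, Zbtb46, near background, was called as higher by 0.28 and Flt3 did not pass, with a summed level of 8.54 to 8.63 on the control and 9.06 to 9.14 on the deficient arrays. The part of these and the other leukocyte markers in the values of Il22ra2 and Il10ra was not tested. Il10 and Il24 were near background, and Il20, a cytokine gene of keratinocytes and myeloid cells, did not pass (log2 fold change 0.08, 95% interval -0.07 to 0.23).

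The IL-17 family held the largest fall of the 70 genes by brightest probe set, although Il15 fell more than the mean of all Il17re probe sets (-1.28 against -0.99). Il17re encodes the chain that pairs with IL-17RA on epithelial cells for an epithelial cytokine of the family, and its log2 signals were 10.53, 10.42 and 10.36 on the control arrays and 8.47, 8.53 and 8.39 on the deficient arrays. No array of one group came within a log2 unit of the other group, a 3.92-fold fall (log2 fold change -1.97, SE 0.0592, limma adjusted p = 4.44e-07). Its other probe sets fell less, from 9.15, 9.23 and 8.92 on the control arrays to 8.53, 8.69 and 8.50 on the deficient arrays (log2 fold change -0.53) and from 6.27, 6.53 and 6.26 to 5.82, 5.90 and 5.93 (log2 fold change -0.47). By its name the brightest probe set is of a kind that may share sequence with other transcripts, and the size of the fall differed by probe set while its direction did not. Of the epithelial markers Krt20 and Vil1 rose, Epcam fell by 0.16 and Cdh1 and Krt8 did not pass, with a summed level of 16.21 to 16.23 on the control and 16.28 to 16.32 on the deficient arrays. Of 4 goblet cell markers Tff3 fell by 0.38 and Spink4 by 0.25 and the others did not pass, and the summed level was 16.29 to 16.30 on the control and 16.16 to 16.17 on the deficient arrays. Of the colonocyte markers Slc26a3 fell by 0.34 and Car1 rose by 0.57, with a summed level of 14.98 to 15.04 on the control and 15.20 to 15.22 on the deficient arrays. The part of these markers in the value of Il17re was not tested.

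Il17rc, which pairs with IL-17RA to bind IL-17A, was at 10.68, 10.66 and 10.73 on the control arrays and 11.27, 11.34 and 11.25 on the deficient arrays. All deficient arrays were above the control arrays (log2 fold change 0.60, SE 0.0455, limma adjusted p = 3.55e-05). A dimmer probe set of the gene, under the background limit, had a log2 fold change of -0.05 and did not pass. Il17rb, the chain for IL-17B and IL-25, was at 6.21, 6.44 and 6.34 on the control arrays and 6.85, 6.87 and 6.72 on the deficient arrays, and rose (log2 fold change 0.48, SE 0.0701, limma adjusted p = 0.000993). The shared chain gene Il17ra had a log2 fold change of -0.08 (95% interval -0.19 to 0.03) and the regulatory chain gene Il17rd one of 0.06 (95% interval -0.07 to 0.19), neither past the test. Hence of the chains that pair with Il17ra, 1 fell, 2 rose and 1 did not pass. Among ligands, Il17b was at 7.76, 7.77 and 7.60 on the control arrays and 8.80, 8.70 and 8.68 on the deficient arrays. Every deficient array lay above the controls, a 2.02-fold rise (log2 fold change 1.02, SE 0.0611, limma adjusted p = 1.13e-05). Il17d did not pass (log2 fold change -0.19, 95% interval -0.38 to 0.00), and Il17a and Il25 were near background.

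Outside these families, Il16, which encodes a chemoattractant for CD4-bearing cells cleaved from a larger precursor, was at 7.30, 7.15 and 7.20 on the control arrays and 8.32, 8.24 and 8.30 on the deficient arrays. It rose, with no overlap (log2 fold change 1.07, SE 0.0521, limma adjusted p = 4.24e-06), but its 4 probe sets differed, with another at 0.27 past the test and the remaining ones at 0.01 and -0.03 not past it, so that the mean of the 4 rose by 0.33. Il34, a ligand of the macrophage growth factor receptor Csf1r, was at 7.20, 7.12 and 7.22 on the control arrays and 6.62, 6.83 and 6.52 on the deficient arrays. It fell, with the groups apart (log2 fold change -0.52, SE 0.0815, limma adjusted p = 0.00145), and the SD was 0.161 over the deficient and 0.0554 over the control arrays. The receptor gene Csf1r rose by 1.12 on the log2 scale, and its other ligand gene, Csf1, did not pass (log2 fold change 0.13). Il4i1, an amino acid oxidase gene named for its induction by IL-4, and the antisense gene Il1bos were near background. The part of the T cell and macrophage markers, higher on the same arrays, in the values of Il16 and Il34 was not tested.

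Near background in both groups were 33 genes, for which a log2 difference is compressed. They were Il10, Il11, Il12a, Il12b, Il12rb1, Il12rb2, Il13, Il17a, Il18r1, Il1a, Il1bos, Il1f6, Il1f8, Il1f9, Il1rapl1, Il1rapl2, Il1rl2, Il2, Il20ra, Il20rb, Il21, Il23a, Il24, Il25, Il2ra, Il3, Il31, Il4, Il4i1, Il5, Il5ra, Il6 and Il9r. Many cytokines of T cells and innate lymphoid cells are in this list, including the genes of IL-4, IL-5, IL-10, IL-13, IL-17A and IL-21. Of the 33 genes, 25 did not pass. Il18r1, Il1a, Il11, Il6, Il5ra and Il31 were called as higher, by log2 fold changes from 0.14 to 0.47, and Il1rl2 and Il1rapl1 as lower. The calls of Il6, Il31 and Il1rapl1 were lost without 3, 4 and 5 of the arrays taken singly (limma, adjusted p between 0.0526 and 0.127). Il1rl2, with a control mean at the limit, was at 6.56, 6.03 and 6.18 on the control arrays and 5.54, 5.27 and 5.47 on the deficient arrays, whereas its other probe set, of sequence not shared, had a log2 fold change of -0.00. For Il12b, a subunit of IL-12 and IL-23, the brightest probe set had a log2 fold change of 0.02, and a dimmer one rose from 4.59, 4.47 and 4.48 on the control arrays to 4.91, 5.19 and 5.11 on the deficient arrays.

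Several interleukin genes lie side by side on a chromosome, and 31 of the 70 fell into 11 such runs, with up to 1 other protein-coding gene between members. Neighbours did not share a direction in every run. On chromosome 6 Il17re and Il17rc are neighbours, and their log2 fold changes were -1.97 and 0.60. On chromosome 1 the decoy receptor gene Il1r2 (0.91) stands beside Il1r1 (-0.71) and Il1rl2 (-0.83), followed by Il18r1 (0.47) and Il18rap (0.19). On chromosome 2 Il1a (0.43) and Il1b (0.98) were both higher, and in the run of 6 genes from Il1f8 to Il1rn the log2 fold changes went from 0.20 to -0.25, with Il1rn alone past the test. On chromosome 7 Il4ra (0.63) and Il21r (0.40) were both higher. In the cytokine cluster of Il4, Il13 and Il5 on chromosome 11 and in the pair of Il2 and Il21 on chromosome 3, all genes were near background and none passed.

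**Figure D3:**
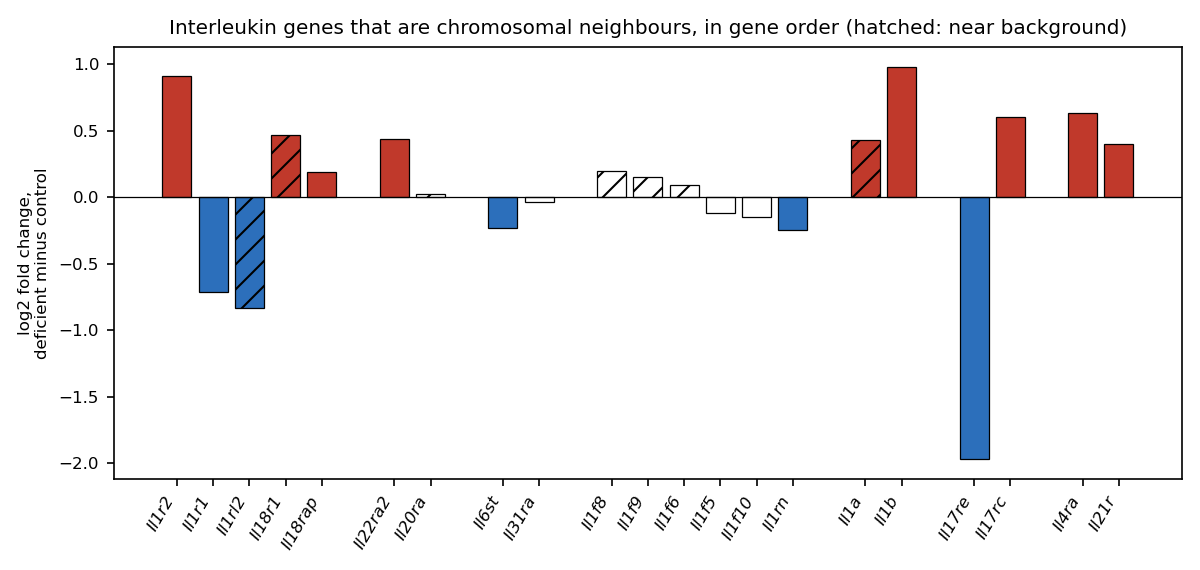
Log2 fold changes (HDAC1/2 deficient minus control, vertical axis) of interleukin genes that are chromosomal neighbours, in gene order, for the runs with at least 1 gene past the test. Red bars passed limma as higher, blue as lower, white bars did not pass and hatched bars are near background. Neighbouring genes took opposite directions at Il17re and Il17rc and between Il1r2 and Il1r1.

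Of the 70 genes, 26 had at least 2 probe sets. In 0 of them were probe sets called in opposite directions. All probe sets were called one way in 4 genes, lower in Il17re, Il1rn and Il7 and higher in Il7r, none was called in 10, and some were called and others not in 12. Il1r1 and Il17rc belong to the last group, each with a second probe set under the background limit that did not pass, as do Il4ra, Il13ra1 and Il16, whose probe sets differed although several were above it.

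**Figure D4:**
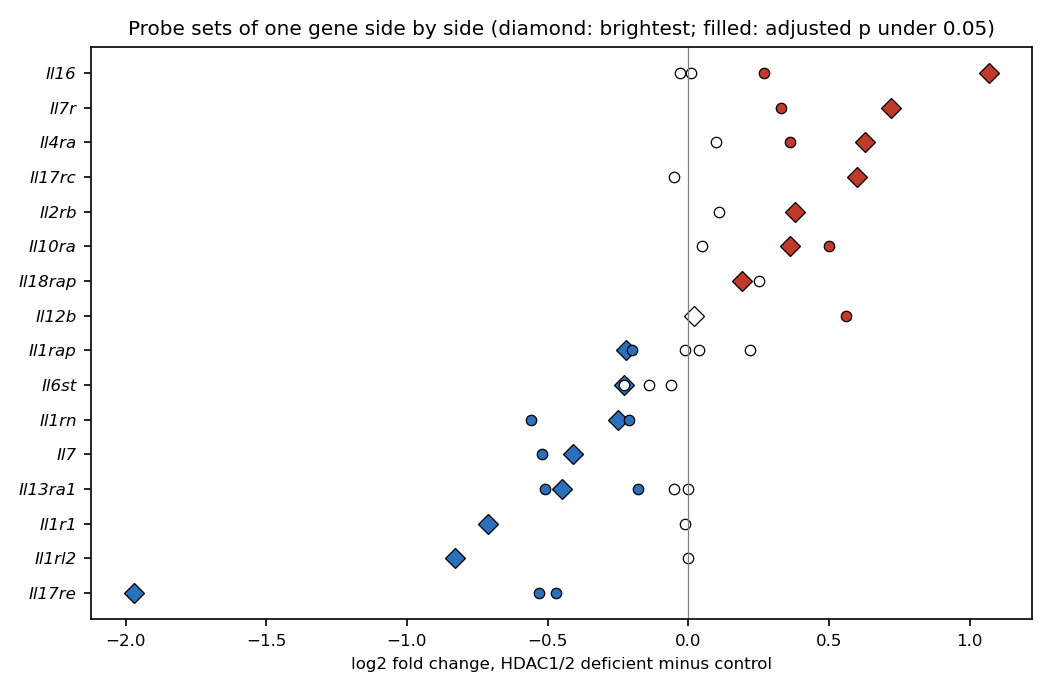
Log2 fold changes (HDAC1/2 deficient minus control, horizontal axis) of every probe set of the interleukin genes that had at least 2 probe sets and at least 1 past the test. Diamonds are the brightest probe set of a gene, circles the others, and filled symbols passed limma at an adjusted p under 0.05. All filled symbols of a gene lie on the same side of 0, while Il17re runs from -1.97 to -0.47.

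Downstream of the receptors, 69 genes of interleukin signalling and related cytokines were measured, of which 27 were higher (39.1%, against 21.9% of all genes), 17 lower (24.6%, against 28.4%) and 25 did not pass. Of the 62 above background, 39 were called in either direction (62.9%, against 60.8% of all such genes). The Janus kinase genes Jak1, Jak2, Jak3 and Tyk2 did not pass, with log2 fold changes from -0.12 to 0.24. The call of Jak1 (-0.12) depends on the setting. It passed with trend and robust settings, with a filter at the 40th percentile and without deficient array 2 (limma adjusted p = 0.00876, 0.0309 and 0.0499). Of 6 STAT genes, with log2 fold changes from -0.32 to 0.93, Stat4, which acts below the IL-12 receptor, rose by 0.93, Stat6, the factor of IL-4 and IL-13, by 0.49 and Stat2 by 0.29, whereas Stat5a fell by 0.32. Stat3, the main factor below gp130, was at 0.13 and lost its call when any 1 array was left out (adjusted p between 0.0602 and 0.113 in limma).

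Genes of the SOCS family, feedback inhibitors that cytokine signals induce, took both directions, with 3 of 8 higher (37.5%, against 21.9% of all genes) and 3 lower (37.5%, against 28.4%). Socs3, which binds gp130, had log2 signals of 7.61, 7.49 and 7.58 on the control arrays and 11.13, 10.92 and 11.09 on the deficient arrays. Its difference (log2 fold change 3.49, SE 0.0666, limma adjusted p = 5.88e-08) was larger than that of any interleukin gene, and was 1.81 without probe sets of shared sequence. Socs1, an inhibitor of interferon gamma and IL-4 signalling, rose by 0.57. Socs2 fell by 1.40, or by 0.87 in the mean of its probe sets, and Cish, a target of Stat5, by 0.59. The call of Socs6 (0.15) as higher was lost without 5 of the arrays taken singly (limma, adjusted p between 0.0845 and 0.146), and that of Socs4 (-0.31) as lower in the mean of its probe sets (log2 fold change 0.11, limma adjusted p = 0.216).

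Of 14 genes of IL-1 and IL-17 receptor signalling, 2 were higher and 6 lower, all 14 being above background (57.1% called in either direction, against 60.8% of all genes above background). Both that rose are induced by these receptors, namely Nfkbiz (1.52), a nuclear cofactor of NF-kappaB, and Zc3h12a (1.15), a ribonuclease that degrades cytokine transcripts, which rose by 0.64 in the mean of its probe sets. The falls were small, from -0.13 to -0.35, and included Sigirr (-0.33), an inhibitory receptor of the IL-1 family, and Traf3ip2 (-0.33), the adaptor of IL-17 receptors. The falls of Irak1 and Casp1 were lost without 5 and 6 of the arrays taken singly (limma, adjusted p between 0.0506 and 0.097), and that of Map3k7 in the mean of its probe sets (log2 fold change 0.02).

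Of 11 related cytokine genes 3 were higher and 2 lower (45.5% called in either direction, against 50.4% of all genes). Kitl, the stem cell factor, fell by 0.93 and Ctf1, which encodes cardiotrophin, by 0.75, while Ebi3 rose and Ifng, near background, was called as higher by 0.82. Of 13 related receptor genes 6 were higher (46.2%, against 21.9% of all genes). They include Csf1r (1.12), Csf2rb (1.14), Csf2rb2 (0.87) and Crlf2 (0.86), the chain that joins Il7r in the receptor for thymic stromal lymphopoietin. Of the 4 that were lower (30.8%, against 28.4%), Kit fell by 0.99, Lifr by 0.61 and the interferon gamma receptor chains Ifngr1 and Ifngr2 by 0.44 and 0.38. Among 13 lineage factors of T and innate lymphoid cells 9 were higher (69.2%, against 21.9% of all genes), including Ikzf3 (1.51), Id2 (1.02) and Irf4 (0.92). In the mean of all probe sets of the gene, Ikzf3 rose by 0.58 and Irf4 by 0.49 on the log2 scale. Ahr, a ligand-activated factor of barrier lymphocytes and epithelium, fell by 0.51, and by 0.14 in the mean of its probe sets. Of the 9 higher genes, Gata3, Tbx21, Eomes and Foxp3 were near background. Plasma cell markers rose in 3 of 3 cases, with a summed level of 13.49 to 13.58 on the control and 14.50 to 14.63 on the deficient arrays. The part of plasma cell, B cell and other markers in the values of Ikzf3, Id2 and Irf4 was not tested.

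**Figure D5:**
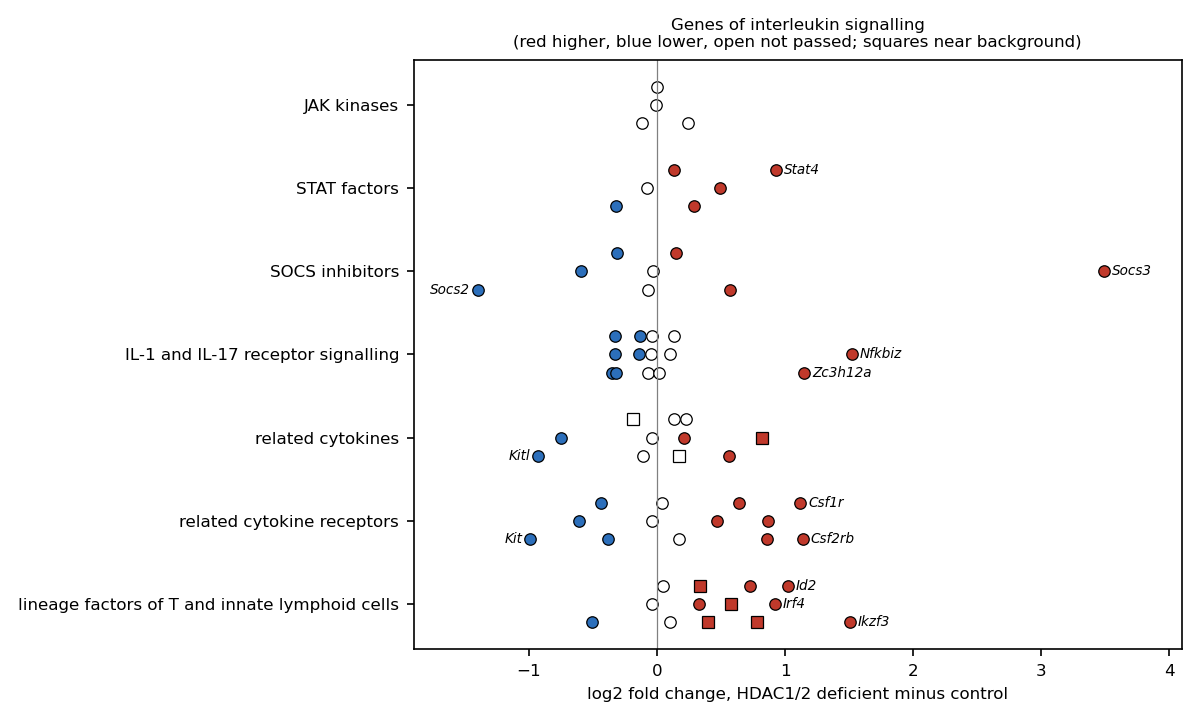
Log2 fold changes (HDAC1/2 deficient minus control, horizontal axis) of 69 genes of interleukin signalling in 7 lists, 1 point per gene. Red points were called as higher by limma (adjusted p under 0.05), blue as lower, and open points did not pass and squares are near background. Socs3 at 3.49 and Socs2 at -1.40 stand at the ends of the scale, and the 4 Janus kinase genes are open and close to 0.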

How the data were processed

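Each deposited value is the log2 signal of a probe set, which the authors background-corrected and normalized by RMA in Flexarray 1.6.1 according to the paper; the submitters' processing notes also name RMA. Groups and replicate numbers came from the sample labels. The limma p-values rest on the spread between 3 arrays per group, moderated by that over all probe sets. The 3 arrays limit the precision, and their spread may not be that between mice. Values ran from 2.79 to 14.85, array medians from 6.78 to 6.81, and r over probe sets from 0.9984 to 0.9988 within and 0.9824 to 0.9828 between groups.

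After 64 control probe sets were left out of 45101, limma 3.58.1 (R 4.3.3, lmFit and eBayes, no covariate) was fitted over 45037 probe sets. The 44 named olfactory receptor probe sets were fewer than the 50 needed to set a background, so the 40th percentile of mean signal (6.26) was used. Members and lists were chosen with earlier results of these data known.

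Genes described in full were those past the test with an absolute log2 fold change of at least 0.5, the largest change and highest mean of each role class, genes the paper names and the ligand or receptor partners of these. Other genes were named after their values were seen. Gene neighbours and promoters came from RefSeq (GRCm38.p6), in which all 70 genes matched by gene ID, and 3 probe sets with several symbols were not used. Alternatives were the methods' t-test without and with Benjamini-Hochberg adjustment, quantile normalization again, median centring, a filter at the 40th percentile, trend and robust settings, array weights, no probe sets of shared sequence, gene means, the replicate block and leaving out each array. Of these steps, the limma test alone was tried on simulated data. No batch could be tested, since the sources used here name none.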

Additional observations from a re-analysis of the deposited data

How the results depend on the processing

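The count of interleukin genes called as higher was between 17 and 26 and that of genes called as lower between 10 and 13 under every alternative run, against 23 and 11, except that the methods' t-test, adjusted by Benjamini-Hochberg, called 17 as higher and 5 as lower. The filter at the 40th percentile left 37 of the 70 genes to count, with 17 higher and 11 lower, so its counts are of a smaller set. Under that adjusted t-test Il1rn (adjusted p = 0.0864), Il7 (0.0702), Il34 (0.0677), Il2rb (0.0608), Il1rap (0.0767), Il1rl2 (0.062), Il10ra (0.104) and Il27ra (0.186) lost their calls, as did Il1rapl1, Il31, Il5ra and Il6 near background. Leaving out each array in turn gave 19 to 24 higher and 10 to 12 lower interleukin genes, and 24 to 27 higher and 15 to 16 lower signalling genes. No interleukin gene described in full changed sign past the threshold under any alternative run. The 3 arrays per group and signals near background limit the precision most for the 33 dim genes. Deviations of same-numbered arrays from their group means correlated at 0.10, 0.06 and -0.03, and those of other pairs at -0.10 to 0.03. With 3 arrays per group these values cannot decide whether the replicate numbers pair the arrays. With the number as a replicate block, 23 interleukin genes were higher and 11 lower, and 26 signalling genes higher and 16 lower. Under the block Il1rapl1, Il31, Stat3, Socs6 and Casp1 lost their calls, and Il12rb1, Il1f10 and Jak3 gained one. In the mean of all its probe sets Il1rap lost its call (log2 fold change -0.03, limma adjusted p = 0.44), and without probe sets of shared sequence Il1rl2 lost it (log2 fold change -0.00, limma adjusted p = 0.988). In the mean of their probe sets Il17rc (0.27), Il1r1 (-0.36), Il4ra (0.37) and Il2rb (0.25) had smaller log2 fold changes that still passed, as did Maf (0.35) among the signalling genes. Both alternatives read other probe sets of these genes, and why those differ was not tested.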
